A study of Mus musculus with 7 samples.

Results

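Open chromatin in the ectoderm of the embryonic first pharyngeal arch was compared with open chromatin in whole molar teeth shortly after birth. The ectoderm side held 2 libraries (replicates 1 and 2, embryonic day 11.5) and the molar side held 2 libraries, 1 of the lower and 1 of the upper first molar at postnatal day 2, so 4 of the 7 mouse libraries of the series entered. The members were merged autosomal regions: peaks of the 4 lists that shared at least 1 bp were joined, and a region was called ectoderm-only or molar-only if both libraries of that side had a peak in it and neither library of the other side did. Of 116310 merged regions, 16358 (14.1%) were ectoderm-only, 24756 (21.3%) were molar-only and 28106 (24.2%) had a peak in all 4 libraries.

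The series profiled tooth-forming tissues by Omni-ATAC, a form of ATAC-seq, which maps DNA left free of nucleosomes by where a transposase can insert sequencing adapters. Per the labels, the ectoderm was peeled off the mesenchyme of dissected arches after treatment with Dispase II, an enzyme that frees epithelium. The molars were dissected whole, so each molar library mixed tooth epithelium with dental mesenchyme, vessels, nerves and blood. The other 3 libraries were a whole lower incisor and 2 replicates of Sox2-positive cells sorted from the labial cervical loop of lower incisors, all at postnatal day 2, the sorted cells from a Sox2-GFP line. Neither a genotype nor a sex is given for the ectoderm and the molars, and nothing says whether the replicates came from separate litters or pools. The molars are different teeth, and they stand for 1 library each rather than for replicates of a tooth. Stage, tissue and the mixing of cell types all change together between the sides, and in a mixed tissue fewer cells of a type and less open chromatin per cell cannot be told apart.

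The arch ectoderm is a thin sheet that carries the signals which place the jaws and teeth. It secretes FGF, BMP, WNT and Hedgehog ligands to the neural crest mesenchyme below it, and it later thickens into the dental lamina that gives the enamel organ. In a newborn molar the epithelial layer has become inner enamel epithelium and young ameloblasts, which secrete enamel, and the facing mesenchyme has become pulp and odontoblasts, which secrete dentin. Most of the change between such stages is carried by enhancers, stretches of open chromatin away from gene starts that transcription factors bind in a given cell type.

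The lists differed in length. Ectoderm replicate 1 had 80850 autosomal peaks and ectoderm replicate 2 had 49719. The lower molar had 68877 and the upper molar 67193. The spread between the ectoderm replicates thus exceeded the difference between the sides (65284.5 ± 22013 against 68035 ± 1191, SD, n = 2 each), and an exact two-sided permutation test over the 4 libraries gave p = 1, where 2 against 2 cannot give less than 0.333. Nearly all of the shorter ectoderm list lay in the longer one (98.2% of its peaks), while 60.8% of the peaks of replicate 1 had a counterpart in replicate 2. The lists hold no read counts, so depth is unknown. All counts were therefore repeated with the 38000 autosomal peaks of smallest p-value in each list, called equal list length below. At that limit the −log10 p of the last peak kept was 4.79 and 3.82 in the ectoderm replicates and 4.28 and 4.27 in the lower and upper molar. The first peak left out had the same −log10 p in each list, and such ties were broken by peak signal.

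At equal list length the sides drew closer in number. Of 61688 merged regions, 12053 (19.5%) were ectoderm-only, 13351 (21.6%) were molar-only and 18398 (29.8%) were in all 4 libraries. The ratio of ectoderm-only to molar-only regions rose from 0.661 to 0.903. A core of 7560 ectoderm-only regions (6.50% of the 116310) and 10446 molar-only regions (8.98%) kept its class in both settings. Of the equal-length ectoderm-only regions 37.2% had a molar peak lower down in a full list, and 21.7% of the equal-length molar-only regions had an ectoderm peak there, shares that depend on how long the full lists of the other side are. The Jaccard index, the base pairs under both lists divided by those under either, at equal length was 0.717 for the ectoderm pair and 0.749 for the molar pair, and ran from 0.401 to 0.408 over the pairs that cross the sides.

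**Figure D1:**
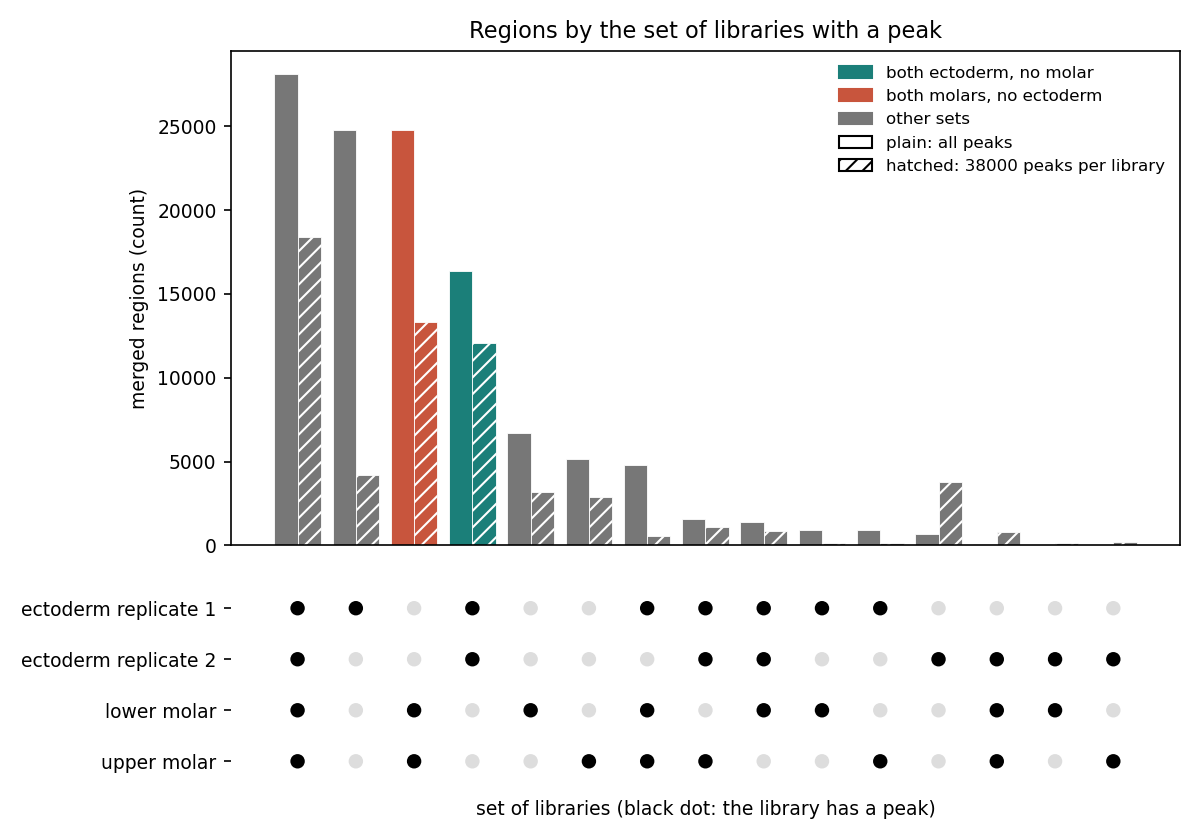
Number of merged autosomal regions (vertical axis, count) for each set of libraries with a peak, with the set marked by black dots below. Plain bars count all deposited peaks and hatched bars 38000 peaks per library. Regions of both molars alone (24756 plain, 13351 hatched) and of both ectoderm libraries alone (16358 and 12053) were far more numerous than sets mixing 1 library of each side, while ectoderm replicate 1 alone fell from 24800 to 4226.

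The plot of library sets shows that the 4 libraries split by side. A region with a peak in 1 ectoderm library and 1 molar and nowhere else was rare, from 26 to 899 regions for each of the 4 such sets with all peaks. Regions of ectoderm replicate 1 alone numbered 24800, those of ectoderm replicate 2 alone 656, those of the lower molar alone 6724 and those of the upper molar alone 5140. At equal length these became 4226, 3769, 3170 and 2879.

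Side-only regions mostly lay away from gene ends, whether inside or between genes, and ranked low in their own lists. Of the ectoderm-only regions 6.57% had their centre within 1 kb of an end of a protein-coding gene (Wilson 95% interval 6.20 to 6.96), of the molar-only regions 2.91% (2.71 to 3.13) and of the regions in all 4 libraries 38.5% (37.9 to 39.1). Intervals here cover the counting of regions only. The shares were 9.34%, 3.09% and 50% at equal length. Ectoderm-only regions thus lay near a gene end more often than molar-only regions in both settings. Their median width was 578 bp against 497 bp for molar-only regions and 1088 bp for regions in all 4. At equal length the median side-only peak stood at percentile 36.7 to 41.4 of its own list by signal, where 100 would be the strongest peak, and the median peak of a region in all 4 libraries at 69.8 to 72.6. Between 0.50% and 1.20% of the side-only peaks of a library were among its strongest 10%. Over whole libraries at equal length, 29.2% and 30.6% of ectoderm peaks and 27.1% and 27.1% of molar peaks had their summit near a gene end, so the sides did not overlap (difference 2.78 points, exact two-sided permutation p = 0.333, the smallest this design allows).

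The sides differed in the 3 libraries that took no part in the choice of regions. A peak of the whole lower incisor overlapped 3.98% of the ectoderm-only regions, and the Sox2-positive replicates overlapped 4.38% and 1.94%, with 92.2% free of peaks in all 3. Ectoderm-only regions of equal list length overlapped a peak of the full incisor list in 17.8% of cases and of the full Sox2-positive lists in 15.9% and 8.94%, and 74.4% were free of all 3. Of the molar-only regions 62.5% had a peak in the incisor, and 37.5% and 34.8% in the Sox2-positive replicates. Both Sox2-positive replicates had a peak in 25.5% of the molar-only regions, the incisor but neither Sox2-positive replicate in 20.7%, and none of the 3 libraries in 32.5%. Molar-only regions of equal list length overlapped a peak of the full incisor list in 77.1% of cases and of the full Sox2-positive lists in 58.7% and 49.0%, so the shares of both sides were higher at equal length. Regions open in all 4 libraries were open in the incisor in 84.2% of cases and in the Sox2-positive replicates in 77.8% and 69.9%. These libraries share their stage with the molars and not with the ectoderm, and the Sox2-positive lists are the shortest of the series.

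**Figure D2:**
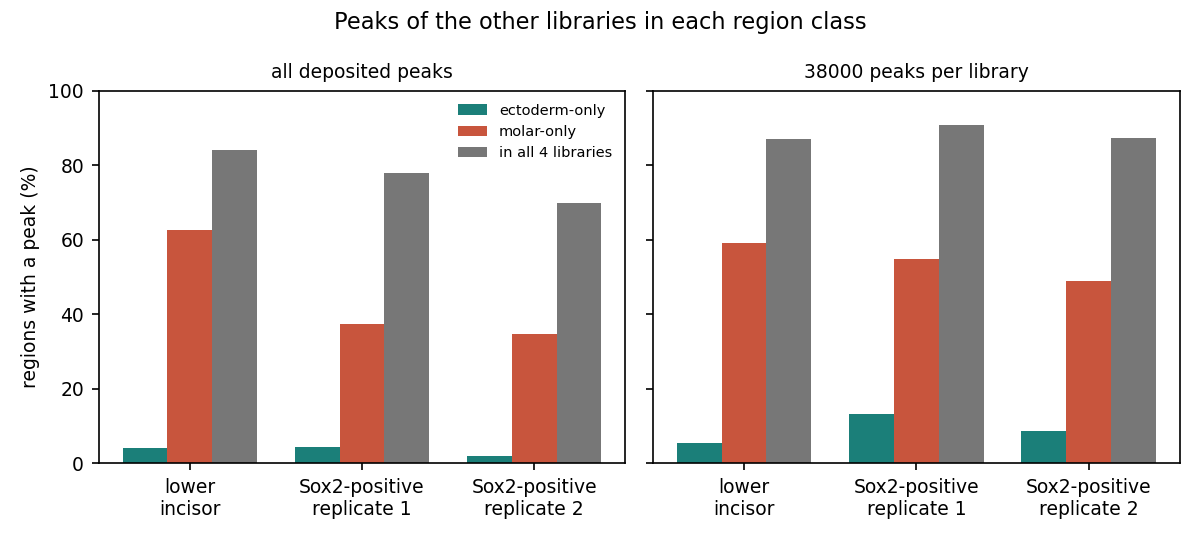
Share of regions (vertical axis, %) with a peak in the lower incisor and in each Sox2-positive replicate, for ectoderm-only regions, molar-only regions and regions with a peak in all 4 compared libraries. Left, all deposited peaks; right, 38000 peaks in every list. Ectoderm-only bars reach at most 13.2% and molar-only bars lie between 34.8% and 62.5% over both panels.

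Genes were read from side-only regions in 2 ways. A region was assigned to the protein-coding gene with the nearest end, up to 50 kb away, and a gene was said to have a gene-end peak in a library if a summit lay within 1 kb of either end. Of 20661 autosomal protein-coding genes, 6363 (30.8%) had at least 1 ectoderm-only region assigned and 7565 (36.6%) at least 1 molar-only region. At equal length these were 5498 (26.6%) and 5223 (25.3%), and 3547 (17.2%) and 4398 (21.3%) had one that was side-only in both settings. The gene-end peak was ectoderm-only at 741 genes (3.59%), molar-only at 322 (1.56%) and present in all 4 libraries at 11469 (55.5%). At equal length the counts were 944 (4.57%), 267 (1.29%) and 10098 (48.9%), and 328 genes (1.59%) and 155 genes (0.750%) kept the ectoderm-only and the molar-only class in both settings. Both ectoderm libraries had more peaks than both molars from 50 kb before to 50 kb after 3526 genes (17.1%), and the molars more at 4031 (19.5%). At equal length these were 5124 (24.8%) and 3917 (19.0%). Many genes held both kinds: 3594 genes had ectoderm-only and molar-only regions, 56.5% of the genes with the former and 47.5% of those with the latter.

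The genes with the most side-only regions at equal length were named by rule, 12 per side, so their counts are a description. Lmx1b, a LIM-homeodomain factor that patterns limb and head structures, led the ectoderm side with 12 ectoderm-only regions and 1 molar-only region (18 and 0 with all peaks). Around Lmx1b (chromosome 2, 33560965 to 33641208) the ectoderm replicates had 30 and 23 peaks and the lower and upper molar 3 and 4. The incisor had 5 peaks there and the Sox2-positive replicates 2 and 3. The locus was thus dense with peaks in ectoderm alone among the 7 libraries. Meis2, a TALE homeodomain partner of patterning factors, followed with 11 ectoderm-only regions, and its ectoderm replicates had 34 and 23 peaks against 16 and 11 in the molars (20 and 18 against 4 and 4 at equal length). Both ends of Meis2 were open in ectoderm. At its start a broad ectoderm peak ran from 0.523 kb before to 2.04 kb after the start in replicate 1, and the lower molar had a peak of its own from 1.65 to 1.91 kb after the start, so that region was not ectoderm-only. The ectoderm-only gene-end summits of Meis2 lay at the far end, 969 and 949 bp outside the gene.

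The other leading ectoderm genes were Igf1r, the receptor of insulin-like growth factors, with 9 ectoderm-only regions, and Rbm20, Col18a1, Pdgfc and Psd2 with 7 each. Crb2, which keeps epithelial cells polarised, Foxp4, Arhgap18, Grhl3 and Nfib had 6 each. Grhl3, a Grainyhead factor of surface epithelium, had 25 and 19 peaks in ectoderm against 12 and 8 in the molars. Foxp4 had 7 ectoderm-only regions and 0 molar-only regions with all peaks. Igf1r shows that such a count need not be one-sided, since it also had 4 molar-only regions at equal length.

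The molar side was led by Ctif, a translation factor, with 12 molar-only regions, and by Col27a1, Runx1, Smad3 and Myof with 10 each. Col27a1 encodes a fibrillar collagen of cartilage and tooth. Around Col27a1 (chromosome 4, 63214009 to 63334991) the molars had 33 and 33 peaks and the ectoderm replicates 12 and 8, and all 16 of its side-only regions with all peaks were molar-only. The incisor had 21 peaks there and the Sox2-positive replicates 16 and 15. Runx1, a RUNX factor of blood and of epithelial stem cells, had 37 and 30 peaks in the molars against 34 and 19 in ectoderm, so the libraries overlapped around it although 10 of its 11 side-only regions were molar-only. Ttc39b and Aopep had 9 molar-only regions each, with none ectoderm-only. Gm39147, Irx5, Bcl11b, Fam178b and Rbfox2 had 8 each. Irx5, an Iroquois homeobox gene, had 20 and 20 peaks in the molars against 11 and 6 in ectoderm (13 and 13 against 4 and 4 at equal length).

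**Figure D3:**
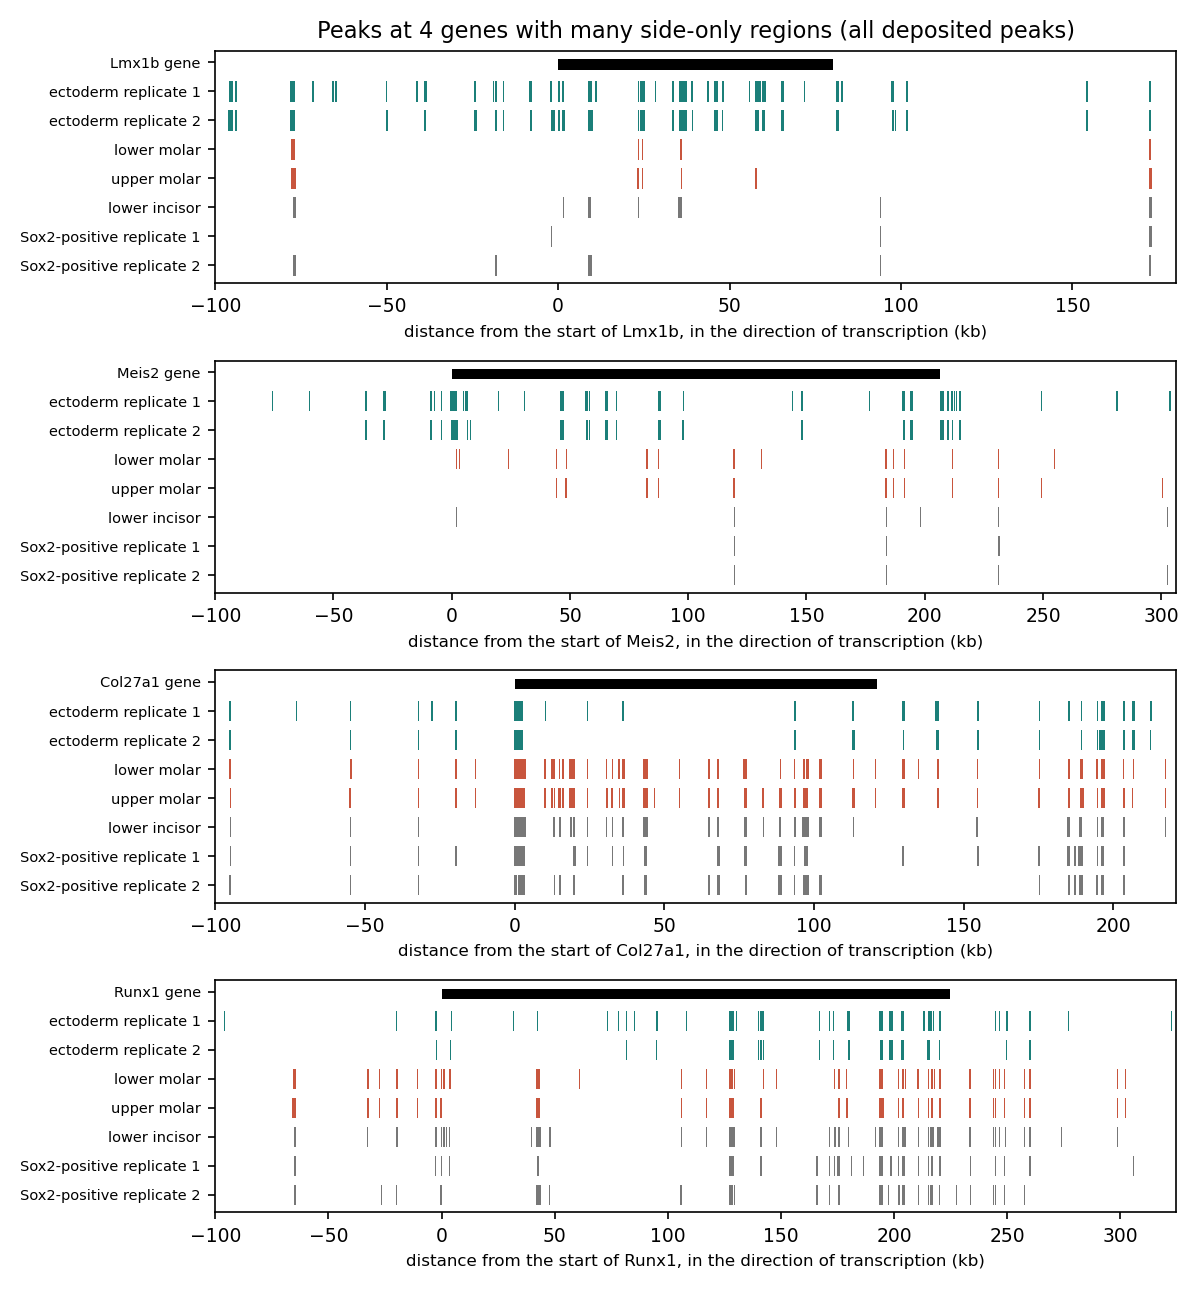
Peaks in all 7 libraries at Lmx1b, Meis2, Col27a1 and Runx1, drawn to scale against the distance from the gene's start in the direction of transcription (horizontal axis, kb), with the gene as a black bar. Each coloured block is a deposited peak, drawn at least 0.4 kb wide. Ectoderm rows are dense at Lmx1b and Meis2, and the molar, incisor and Sox2-positive rows are dense inside Col27a1.

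The strongest side-only regions were ranked by the worse of the within-library ranks by signal. The first ectoderm-only region was chr8:26807213-26809318, between genes and 169 kb from Zfp703, with rank 421 and 465 in the ectoderm lists. The next was chr2:33435095-33438808, 5.63 kb from Zbtb34, a neighbour of Lmx1b. The others were nearest to Ppp2r2b, Tmem38b, Sp4, Mlana, Nrip1 and Supt20. None of these 8 except the region near Tmem38b had a peak in the incisor or in either Sox2-positive replicate, and that region had one in all 3. On the molar side the first region was chr8:92407964-92409414, 47.2 kb from Irx5, with rank 495 and 420. It was followed by regions nearest to Bambi, a decoy receptor that dampens BMP and activin signals, Col27a1, Msx2, Sp6, Letm2, Pcbp3 and Gng4. The region near Msx2, a homeobox gene of BMP-responsive epithelium and mesenchyme, lay 59.3 kb away, and the region near Sp6, a zinc-finger factor that ameloblasts require, lay 2.27 kb away. All 8 molar regions had a peak in all 3 other libraries.

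Lists of genes with known roles are described by the share of their assigned side-only regions that were ectoderm-only, beside the same share over all genes, which was 39.9% (48.3% at equal length, and 41.1% for regions side-only in both settings). Shares rest on few regions in most lists, and nothing is claimed to be particular to a list.

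Genes that pattern the arch ectoderm leaned to the ectoderm side. Of 122 side-only regions at the 39 listed genes, 71 were ectoderm-only (58.2%), and 52 of 86 at equal length (60.5%). The share lay above that of all genes in each of 14 settings, each compared within its own setting. Their median difference in peaks within 50 kb was 2.5 more in ectoderm (1 at equal length), against 0 over all genes. The gene-end peak was ectoderm-only at 8 of the 39 and molar-only at 1, beside the 3.59% and 1.56% of all genes. Members of different roles went different ways. Among transcription factors, Tfap2a had 7 ectoderm-only regions and 0 molar-only, Tfap2b 4 and 0, and Isl1 3 and 0. Dlx6 had 0 ectoderm-only and 5 molar-only regions and Foxi3 1 and 4. Among ligands, Fgf17, which acts with Fgf8 in the arch, had 3 and 0 and Edn1, the endothelin ligand that sets lower jaw identity, 3 and 0, whereas Bmp7 had 0 and 8 and Shh 0 and 3.

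The AP-2 factors and Foxe1 carried gene-end peaks in ectoderm and in no other library. AP-2 alpha and beta, encoded by Tfap2a and Tfap2b, direct the fate of surface ectoderm and neural crest, and Foxe1 is required for palate and thyroid. Around Tfap2a (chromosome 13, 40713802 to 40738238) the ectoderm replicates had 18 and 16 peaks and the molars 9 and 7. The summits at its outermost start lay 106 and 107 bp outside the gene with signals of 1403 and 1180, while an inner RefSeq start of Tfap2a was open in all 4 libraries. At Tfap2b the ectoderm replicates had 8 and 6 peaks against 2 and 2. The gene-end peaks of Tfap2b were weaker, with signals of 596 and 318 and summits 259 and 254 bp inside the gene. Its RefSeq start window lay under no peak of the 4 libraries. Foxe1, a short gene, lay under ectoderm peaks of 2357 and 2300 bp with signals of 3860 and 2444, and had 9 and 9 peaks within 50 kb against 2 and 2 at equal length.

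Among the loci fixed for inspection, 6 of 35 had more peaks in both ectoderm libraries in both settings and 7 had more in both molars in both settings. Over all genes 11.3% and 10.6% did so, and in a single setting the 17.1% to 24.8% and 19.0% to 19.5% given above, so counts this small are given as a description of the loci. The first group was Fgf8, Foxe1, Isl1, Msx1, Tfap2a and Tfap2b. Fgf8, the ligand of the oral ectoderm that keeps the mandibular mesenchyme alive, had 11 and 7 peaks against 6 and 5 (5 and 6 against 2 and 3 at equal length). Isl1, a LIM factor of the distal jaw epithelium, had 7 and 5 against 2 and 2. Msx1, a homeobox gene of the dental mesenchyme, also had more peaks in the ectoderm lists, 11 and 9 against 4 and 5. The second group was Col1a1, Dmp1, Dspp, Foxi3, Krt14, Ptprc and Shh. Shh, the ligand of the dental placode and enamel knot, had 6 and 4 peaks in ectoderm and 9 and 10 in the molars. Trp63, Dlx3 and Perp overlapped between the sides in both settings, with 23 and 13 peaks against 23 and 23 at Trp63, the p63 gene of stratified epithelium.

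**Figure D4:**
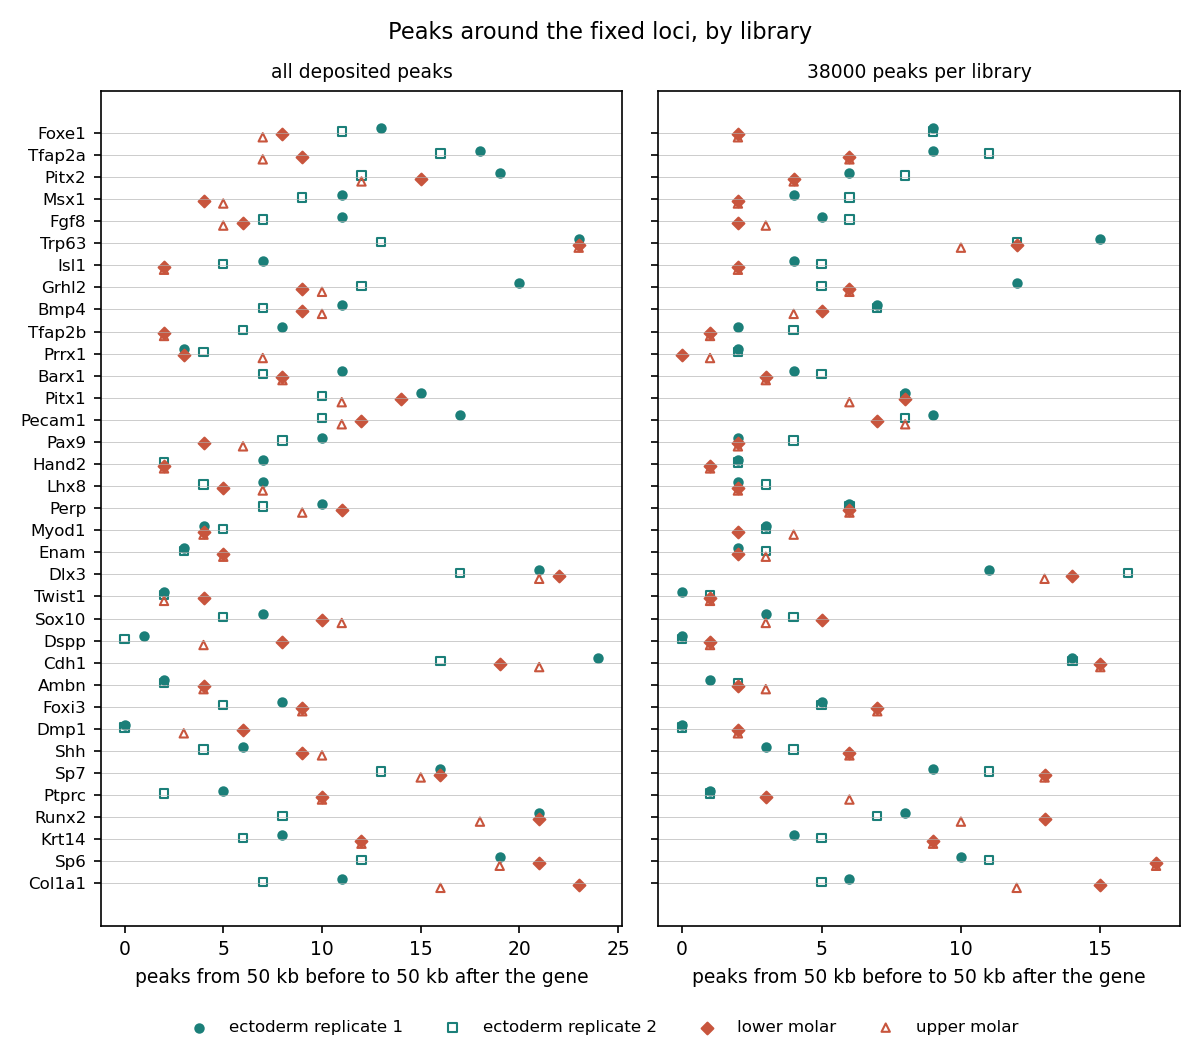
Peaks from 50 kb before to 50 kb after each of the 35 fixed loci (horizontal axis, count), left with all deposited peaks and right with 38000 peaks per library, ordered by the difference at equal length. Filled and open green symbols are ectoderm replicates 1 and 2, and filled and open red symbols the lower and upper molar. Foxe1 and Tfap2a at the top have more peaks in ectoderm, and Sp6 and Col1a1 at the bottom more in the molars at equal length.

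Keratins of general epithelium went to different sides. The list of general epithelial genes had 49 ectoderm-only and 61 molar-only regions (44.5% ectoderm-only), and 50 and 35 at equal length (58.8%), above all genes in each of 14 settings. Among keratins of simple epithelium, Krt8 had 2 ectoderm-only regions and 0 molar-only, and Krt18, its neighbour on chromosome 15, 3 and 0. Krt19, a keratin of simple and embryonic epithelium, had 2 and 0. Among keratins of stratified epithelium there were 0 and 5 at Krt14, 0 and 2 at Krt5 and 0 and 1 at Krt17. Krt7, a keratin of simple epithelium, also had only molar-only regions, 0 and 2, so the keratins did not divide by type of epithelium alone. Krt14, Krt17 and Krt19 lie together on chromosome 11, so their windows share peaks. Krt14 had 8 and 6 peaks in ectoderm and 12 and 12 in the molars, and Krt19 11 and 6 against 3 and 4. At the start of Krt8 and of Krt18 the gene-end peak was in all 4 full lists and in the ectoderm lists but neither molar list at equal length.

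The claudins seal tight junctions between epithelial cells. Cldn3, Cldn6 and Cldn7 each had gene-end peaks in both ectoderm libraries and in none of the other 5. The Cldn3 peaks were 2031 and 2035 bp wide with signals of 4133 and 3677. Cldn6 had signals of 2046 and 1887 at its start and Cldn7 3005 and 2327. On the molar side Pkp3, a plakophilin of desmosomes, had a gene-end peak in both molars and in all 3 other libraries and in neither ectoderm library. Itga6, the laminin-binding integrin of basal cells, had 0 ectoderm-only and 5 molar-only regions, and Ehf, an ETS factor of epithelium, 0 and 5.

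The stretch upstream of the start is printed for 3 genes whose RefSeq start window was open in ectoderm and in neither molar in both settings, so that it can be set beside the molar ones below. Each run holds the 250 bases before the start, 5′ to 3′ on the gene's strand, from RefSeq (GRCm38.p6), at chr2:33641099-33641348 on the minus strand for Lmx1b, chr17:23679115-23679364 on the plus strand for Cldn6 and chr5:134985964-134986213 on the plus strand for Cldn3. Capitals mark matches, on either strand, of the 11 motifs searched, which are spelled out with their shares below.
Lmx1b: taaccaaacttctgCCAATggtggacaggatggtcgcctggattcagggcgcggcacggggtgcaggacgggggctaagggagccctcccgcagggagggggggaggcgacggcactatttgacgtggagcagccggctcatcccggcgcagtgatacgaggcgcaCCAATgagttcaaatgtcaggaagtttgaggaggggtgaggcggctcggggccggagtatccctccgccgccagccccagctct
Cldn6: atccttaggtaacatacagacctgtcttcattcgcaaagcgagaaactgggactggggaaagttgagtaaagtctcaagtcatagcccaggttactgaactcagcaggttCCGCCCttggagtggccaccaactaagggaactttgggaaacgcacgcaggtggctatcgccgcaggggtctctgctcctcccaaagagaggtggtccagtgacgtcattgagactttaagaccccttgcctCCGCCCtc
Cldn3: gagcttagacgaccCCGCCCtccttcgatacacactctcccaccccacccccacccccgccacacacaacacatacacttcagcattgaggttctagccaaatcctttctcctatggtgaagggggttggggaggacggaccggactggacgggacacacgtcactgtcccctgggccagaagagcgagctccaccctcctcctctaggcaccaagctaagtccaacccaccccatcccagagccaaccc
In these runs GGGCGG, the core of SP and KLF sites, was found in Cldn6 (140 and 8 bases before the start) and Cldn3 (236 before), and CCAAT, the core of NF-Y sites, in Lmx1b (236 and 84 before).

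Genes of dentin and mineral had the lowest ectoderm-only share of the 21 lists with all peaks and at equal length. For regions side-only in both settings the share was 15.6%, beside 15.4% (2 of 13 regions) for blood and immune genes. Of 79 side-only regions at the 26 listed genes, 10 were ectoderm-only and 69 molar-only (12.7% ectoderm-only), with 9 and 32 at equal length (22.0%). The share was below that of all genes in each of 14 settings, from 9.57% to 34.6%. The median gene had 4 fewer peaks in ectoderm (1 fewer at equal length), and both molars exceeded both ectoderm libraries at 15 of the 26 genes, with 2 the other way. Of the 69 molar-only regions 89.9% had a peak in the whole incisor, beside 65.1% of all assigned molar-only regions. Both Sox2-positive replicates had a peak in 36.2% of the 69, beside 26.8% of all assigned molar-only regions. Runx2, the master factor of bone and odontoblast differentiation, had 0 ectoderm-only and 5 molar-only regions. Alpl, the phosphatase that frees phosphate for mineral, had 1 and 9, and Ank, which exports pyrophosphate, 2 and 10.

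Dspp, Dmp1 and Ibsp belong to the cluster of secreted phosphoproteins on chromosome 5. Dspp had 1 and 0 peaks in ectoderm and 8 and 4 in the molars, Dmp1 0 and 0 against 6 and 3, and Ibsp 2 and 1 against 5 and 8. These neighbours share part of their windows. Neither Dspp nor Dmp1 had a gene-end peak in a molar library. At Ibsp, bone sialoprotein, the molar summits lay 65 and 95 bp before the start with signals of 1007 and 1403. At Runx2 they lay 69 and 69 bp inside its start, with signals of 545 and 763. Col1a1, the collagen of bone and dentin, had 11 and 7 peaks in ectoderm and 23 and 16 in the molars.

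Collagen and matrix genes followed the same direction, with 24 ectoderm-only and 94 molar-only regions (20.3%), and 17 and 39 at equal length (30.4%). Col5a1 had 1 ectoderm-only and 9 molar-only regions, Col6a3 0 and 9, and Fn1, fibronectin, 1 and 5. Tnc, tenascin C, went the other way with 4 and 1. Regulators of the dental mesenchyme were mixed, with 39.8% ectoderm-only regions beside 39.9% over all genes, and lay above all genes in 7 of 14 settings. Pdgfra, the PDGF receptor of neural crest mesenchyme, had 0 ectoderm-only and 8 molar-only regions and a gene-end peak in both molars and all 3 other libraries, with 4 and 3 peaks around it in ectoderm against 15 and 12. Ptch1, the Hedgehog receptor and target, had 0 and 11. Alx4 had 4 and 0 and Pax9 4 and 1. Prrx1, a mesenchymal homeobox gene, had its gene-end peak in both ectoderm libraries and Sox2-positive replicate 1 and in neither molar.

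Enamel genes had more molar-only than ectoderm-only regions. The list had 16 ectoderm-only and 44 molar-only regions (26.7%), and 26 and 36 at equal length (41.9%), below all genes in each of 14 settings. Its gene-end peaks did not hold that direction: 0 of the 24 were ectoderm-only and 5 molar-only with all peaks, and 6 were ectoderm-only and 3 molar-only at equal length. At Ambn, which encodes the enamel matrix protein ameloblastin, both molars had a gene-end peak, with summits 152 and 154 bp before its start and signals of 1047 and 1108, and also in all 3 other libraries. Sp6 had one in the same 5 libraries, 52 and 100 bp outside the gene. Enam, enamelin, had one in both molars alone with all peaks and in no library at equal length. Satb1, a chromatin organiser, had 0 ectoderm-only and 8 molar-only regions and Lamb3, a laminin chain of the enamel epithelium's basement membrane, 0 and 6. Fam20a, a partner of the enamel kinase, had 0 and 7. Both molars had a summit at the far end of Fam20a, with signals of 533 and 462. The upper molar also had one 857 bp inside the start, with a signal of 1829. The start window of Fam20a was open in all 4 libraries. Itgb6, an integrin of ameloblasts, went the other way with 4 and 0, as did Klk4, an enamel protease, with 1 and 0.

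The same 250-base stretch is printed for 3 genes whose start window was open in the molars and in neither ectoderm library in both settings, at chr17:44814628-44814877 on the minus strand for Runx2, chr5:88455741-88455990 on the plus strand for Ambn and chr5:104299037-104299286 on the plus strand for Ibsp. Capitals again mark motif matches on either strand.
Runx2: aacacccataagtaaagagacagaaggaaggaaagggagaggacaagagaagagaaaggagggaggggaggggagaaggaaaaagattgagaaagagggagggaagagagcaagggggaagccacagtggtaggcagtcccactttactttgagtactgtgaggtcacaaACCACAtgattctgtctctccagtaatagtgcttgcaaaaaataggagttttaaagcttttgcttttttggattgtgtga
Ambn: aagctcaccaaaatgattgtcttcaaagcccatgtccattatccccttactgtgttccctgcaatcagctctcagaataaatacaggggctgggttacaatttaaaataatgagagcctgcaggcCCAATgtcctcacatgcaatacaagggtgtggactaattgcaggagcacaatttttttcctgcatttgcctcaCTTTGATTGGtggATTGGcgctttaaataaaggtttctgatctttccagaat
Ibsp: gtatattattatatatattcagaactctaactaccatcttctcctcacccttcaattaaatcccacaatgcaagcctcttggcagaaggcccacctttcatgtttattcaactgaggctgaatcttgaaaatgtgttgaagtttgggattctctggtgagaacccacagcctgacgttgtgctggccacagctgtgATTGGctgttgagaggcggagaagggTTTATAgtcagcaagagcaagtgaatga
Runx2 held TGTGGT, the core of RUNX sites, 80 bases before its start, Ambn held CTTTGAT, the core of TCF and LEF sites, 52 before and CCAAT 3 times, and Ibsp held TATAAA 28 before and CCAAT 54 before. None of the 3 held GGGCGG.

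Start windows of 300 bases, from 250 before to 50 after a RefSeq start, were compared in composition. The table gave 20084 autosomal windows, for 79.6% of the genes. With all peaks, 692 windows were under a peak in both ectoderm libraries alone and 200 in both molars alone. The median observed over expected CpG ratio was 0.59 over all windows, 0.79 where all 4 libraries had a peak, 0.50 in ectoderm-only windows and 0.24 in molar-only windows. In windows without a peak it was 0.18. The ectoderm-only median thus lay between that of windows open in all 4 libraries and that of windows without a peak. The molar-only median lay near that of windows without a peak. For windows of the same class in both settings the medians were 0.46 ectoderm-only and 0.25 molar-only. They were 0.80 in windows open in all 4 and 0.18 in windows without a peak. GGGCGG was in 47.8% of ectoderm-only and 23.0% of molar-only windows, against 47.0% of all. TGANTCA, the AP-1 core with N for any base, was in 7.23% and 14.5%, against 7.06%. TGTGGT was in 11.8% and 24.0%, against 14.8%, and TAATTA, a homeodomain core, in 3.03% and 13.0%, against 4.47%. GCCNNNGGC, the AP-2 core, was in 22.4% and 12.5%, against 20.2%. In windows without a peak TGANTCA was in 11.4%, TGTGGT in 21.5% and TAATTA in 8.49%. CCGGAA, the ETS core, was in 8.96% and 8.50%, against 19.1% of all and 29.5% of windows open in all 4 libraries. GGAATG, the TEAD core, was in 13.3% and 21.0%, against 13.4%. CCAAT was in 33.1% and 33.0%, against 38.1%, and TATAAA in 9.97% and 13.5%, against 12.7%. CTTTGAT was in 4.05% and 4.0%, against 3.26%, and AACCGGTT, the Grainyhead core, in 0.289% and in 0 of 200, against 0.184%. At equal length the molar-only shares moved to 39.0% for GGGCGG, 15.5% for GGAATG, 20.3% for TGTGGT and 9.09% for TAATTA, with 187 windows. These 11 motifs were all that were searched, on both strands, and matches of different motifs may overlap. A match is letters in a window, not a bound site.

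**Figure D5:**
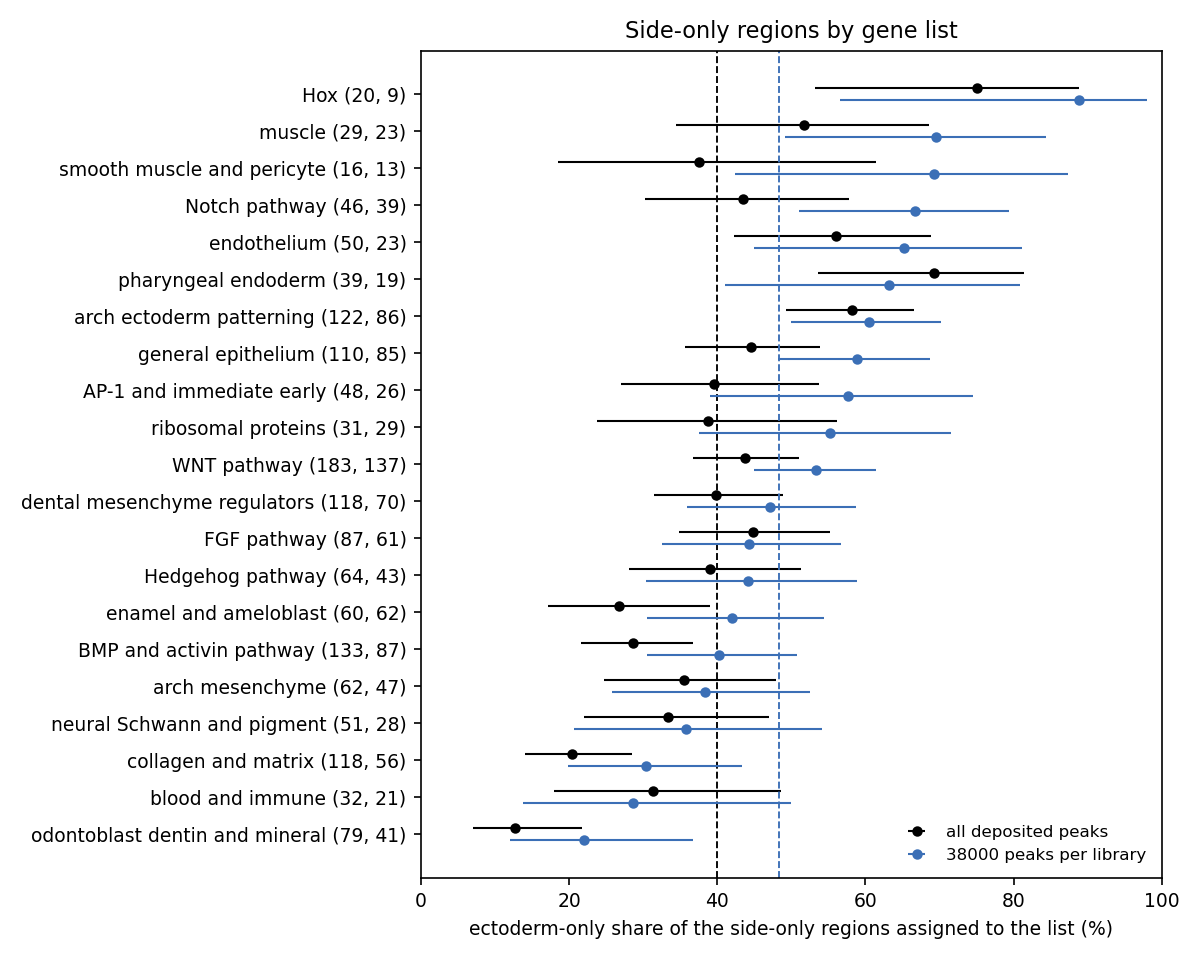
Ectoderm-only share of the side-only regions assigned to each of 21 gene lists (horizontal axis, %), with Wilson 95% intervals for the counting of regions. Black is all deposited peaks and blue 38000 peaks per library, and dashed lines are the shares over all genes (39.9% and 48.3%). The numbers after each name are its side-only regions in the 2 settings. Odontoblast and collagen lists lie left of the lines, and arch ectoderm patterning right of them.

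Signalling pathways differed in which members changed side. In the WNT list 80 of 183 side-only regions were ectoderm-only (43.7%, and 53.3% at equal length). Among the ligands, Wnt3 had 3 ectoderm-only and 0 molar-only regions, Wnt4 4 and 1 and Wnt9b 2 and 0, while Wnt10a had 1 and 5. Wnt9b, an ectodermal ligand needed for the fusion of lip and palate, had 21 and 15 peaks around it against 7 and 8. Among receptors that bind R-spondin, Lgr5 had 3 ectoderm-only and 0 molar-only regions and Lgr6 0 and 3. Of the nuclear effectors, Tcf7 had 0 and 4, Tcf7l2 1 and 7 and Lef1 1 and 3, whereas Tcf7l1 had 6 and 6. In the BMP and activin list 38 of 133 were ectoderm-only (28.6%, and 40.2% at equal length), below all genes in each of 14 settings. Among the receptors, Tgfbr2 had 1 ectoderm-only and 10 molar-only regions, Acvr1 0 and 8 and Bmpr1a 0 and 4. Acvr2a had 0 and 3 and Tgfbr1 1 and 2. Bmpr2 and Acvr1b were even with 2 and 2 each, and Acvr2b went the other way with 1 and 0. Among ligands, Bmp6 had 6 and 0, Bmp7 0 and 8, Tgfb2 0 and 7 and Bmp4 0 and 2. Bmp5 had its gene-end peak in both ectoderm libraries alone, 5 and 10 bp inside its start.

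In the FGF list 39 of 87 regions were ectoderm-only (44.8%, beside 39.9% over all genes). At equal length the share was 44.3%, beside 48.3% over all genes. Ligands with ectoderm-only regions and no molar-only region were Fgf5 (1), Fgf7 (2), Fgf10 (3), Fgf14 (1), Fgf15 (2), Fgf17 (3), Fgf20 (2) and Fgf21 (1), and Fgf20 and Fgf14 had ectoderm-only gene-end peaks in both settings. The ligands Fgf4, Fgf6 and Fgf12 went the other way, with 0 ectoderm-only and 1 molar-only region each. Fgf1 had 1 and 6, and the receptor Fgfr2, which is needed for tooth and limb outgrowth, 5 and 10. The ETS effectors Etv1, Etv4 and Etv5 had 0 and 2, 0 and 3, and 1 and 2. Hedgehog genes had 39.1% (44.2% at equal length). Notch genes had 43.5%, and 66.7% at equal length, with ectoderm-only regions at the ligand Jag1 (5 and 0) and molar-only regions at the receptor Notch2 (3 and 11) and at Lfng (0 and 4), which modifies Notch. Dll3 carried an ectoderm-only and Dll1 a molar-only gene-end peak in both settings.

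The Hox genes are silent in the tissues of the mandibular arch in textbook accounts. Of 20 side-only regions at 39 listed genes, 15 were ectoderm-only (75%), and 8 of 9 at equal length. Hoxd1 had a gene-end peak in both ectoderm libraries alone, with signals of 988 and 671. Summed over the list, with neighbours sharing windows, there were 199 and 122 peaks in ectoderm against 53 and 44 in the molars, and 54 and 61 against 16 and 24 at equal length. With all peaks, gene-end peaks were found at 8 and 6 of the 39 Hox genes in ectoderm and 2 and 1 in the molars. This contrast nearly vanished at equal length, with 2 and 2 in ectoderm against 1 and 1 in the molars.

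Markers of other cell types were read to check the labels. Of all 20661 genes, 13355 (64.6%) and 12711 (61.5%) had a gene-end peak in the ectoderm replicates, and 12425 (60.1%) and 12387 in the lower and upper molar. At equal length the counts over all genes were 11699 and 12039 against 10941 and 10967. Of the 42 general epithelial genes, 36 and 33 had a gene-end peak in the ectoderm replicates and 32 and 34 in the molars. At equal length these were 32 and 33 against 27 and 27. Arch mesenchyme genes had gene-end peaks as often in both sides, 19 and 17 of 23 in ectoderm and 19 and 17 in the molars. At equal length the counts were 11 and 14 against 13 and 12. No library here is mesenchyme alone, so these counts cannot show whether gene-end peaks separate the peeled ectoderm from mesenchyme. Pharyngeal endoderm, the inner lining of the arches, had 69.2% ectoderm-only regions (63.2% at equal length). Its gene-end peaks were at 11 and 9 of 15 genes against 6 and 5 (6 and 5 against 4 and 3 at equal length). Foxa2, a defining endoderm factor, had 11 and 2 peaks around it in ectoderm against 0 and 0. Endothelium had 56.0% (65.2% at equal length) and gene-end peaks at 12 and 12 of 23 genes against 10 and 7. At equal length these were 7 and 8 against 3 and 2. Blood and immune genes had 31.2% (28.6% at equal length), with gene-end peaks at 7 and 7 of 28 against 5 and 5. At equal length these were 5 and 6 against 3 and 3. Ikzf1 and Ets1, factors of blood and vessels, had ectoderm-only gene-end peaks in both settings. The defining markers Pecam1, Ptprc and Sox10 had no gene-end peak in any of the 4 libraries. Muscle genes had 51.7% (69.6% at equal length), smooth muscle 37.5% (69.2%), and neural, Schwann and pigment genes 33.3% (35.7%). Arch mesenchyme genes had 35.5% (38.3%). Immediate early genes, which respond to tissue handling, had 39.6% (57.7%), and ribosomal protein genes 38.7% (55.2%). The part of other cell types in the results above was not tested.

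Of the 25 listed genes whose gene-end peak kept its side in both settings, 17 were on the ectoderm side and 8 on the molar side, a split close to that of all 483 such genes, of which 67.9% were on the ectoderm side. They were Bmp5, Cldn3, Cldn6, Cldn7, Dll3, Ets1, Fgf14, Fgf20, Foxa2, Foxe1, Hoxd1, Ikzf1, Isl2, Krt19, Prrx1, Tfap2a and Tfap2b for ectoderm, and Ambn, Dll1, Fam20a, Ibsp, Pdgfra, Pkp3, Runx2 and Sp6 for the molars. At 16 of the 17 ectoderm genes none of the 3 other libraries had a gene-end peak, the exception being Prrx1, beside 82.6% of the 328 such genes overall. At 6 of the 8 molar genes all 3 had one, the exceptions being Dll1 and Fam20a, beside 51.6% of the 155 such genes overall.

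Hairpins of microRNAs known from epithelium and mesenchyme were examined within 10 kb. Over 919 autosomal hairpins, 137 (14.9%) had an ectoderm-only region in that window and 209 (22.7%) a molar-only region, and 14.0% and 13.8% at equal length. The mature sequences below are examples from hairpins with a side-only region in that window. They are from RefSeq (GRCm38.p6), with the seed (bases 2 to 8) in capitals.
miR-31-5p: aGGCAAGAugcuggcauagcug
miR-183-5p: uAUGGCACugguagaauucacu
miR-96-5p: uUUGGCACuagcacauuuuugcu
miR-203-3p: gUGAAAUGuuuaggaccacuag
miR-199a-3p: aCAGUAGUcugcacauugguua
miR-214-3p: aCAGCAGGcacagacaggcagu
Mir31, a microRNA of proliferating epithelium (chromosome 4, 88910557 to 88910662), had 2 and 1 peaks in ectoderm and 0 in both molars and in all 3 other libraries. Mir183 and Mir96, which share a cluster on chromosome 6, had 5 and 3 peaks in ectoderm and 2 and 1 in the molars, with 2 ectoderm-only regions. Mir203, which restrains stem cell growth in skin, had 5 and 4 against 3 and 4, with 1 ectoderm-only region. On the molar side Mir199a-1, a mesenchymal microRNA on chromosome 9, had 0 and 0 peaks in ectoderm and 1 and 1 in the molars. Mir199a-2 and Mir214 on chromosome 1 had 2 and 1 against 3 and 4, with 1 ectoderm-only and 3 molar-only regions, and 0 and 0 against 1 and 3 at equal length, with 1 molar-only region. The epithelial Mir200a, Mir200b and Mir429 cluster had no side-only region in either setting. Mir205 had 5 and 6 peaks against 10 and 8, with 2 molar-only regions. At equal length Mir205 had 4 and 6 against 7 and 6, with 0 molar-only regions. The sequences of miR-199a-3p and miR-199b-3p are identical, so these loci encode a shared seed.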

How the data were processed

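Chromatin accessibility was measured by ATAC-seq in 7 mouse libraries, of which 4 were compared. Per the submitters' processing notes, reads were handled with FastQC, Trimmomatic, Bowtie2, deepTools and Genrich on build mm10, with versions, read shift and filters not given in the sources used here. The authors deposited 1 narrowPeak list per library, called on each library alone, and its values are a signal per peak and a −log10 p per peak, both as the peak caller wrote them. Read counts are not in these lists, so depth is unknown, and a side-only region may have reads below the caller's threshold on the other side.

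Autosomal peaks (19 chromosomes) of the 4 libraries were merged where they shared 1 bp, with Python 3.11.15, numpy 2.4.6, pandas 2.3.3 and scipy 1.17.1, and drawn with matplotlib 3.10.9. All counts were repeated with the 38000 peaks of highest −log10 p per library. Genes were 20661 autosomal protein-coding genes of RefSeq (GRCm38.p6, the same build as mm10). The scripts were tested on simulated peaks with known overlaps. Library totals were compared by exact permutation over 4 libraries. Counts of regions were not tested, since regions are not replicates, and Wilson intervals cover 95%.

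The members and the 21 lists were chosen with earlier results of these data known. Genes and regions were named by rule: the 8 side-only regions per side with the best worse rank by signal among those side-only in both settings, at most 1 per nearest gene, the 12 genes per side with the most side-only regions at equal length, list members whose gene-end peak was side-only in both settings, and 35 fixed loci. Other list members named with counts were chosen as examples after their values were seen, as were the printed start windows and microRNAs. Alternatives tried were other list lengths and rankings, 50% coverage of a region, 200 bp summit windows, adding chromosome X, other windows around gene ends, assignment within 25 kb, and leaving out each library.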

Additional observations from a re-analysis of the deposited data

Results flagged for a closer look

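Peaks outside the autosomes took no part in the counts above and carried signal of their own. On chromosome X, 325 regions were ectoderm-only, 278 were molar-only and 584 had a peak in all 4 libraries, so ectoderm-only regions outnumbered molar-only regions there, unlike on the autosomes with all peaks. Among regions of X, 4 ectoderm-only and 2 molar-only ones lay nearest to Gpc3, a glypican that restrains growth signals. Bcor, a co-repressor whose loss disturbs tooth roots, was nearest to 3 regions of each side. Dmd and Amot were each nearest to 3 molar-only regions, and Amot also to 2 ectoderm-only regions.

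On chromosome Y, 9 regions were ectoderm-only and 0 were molar-only, with 17 and 20 peaks in the ectoderm lists and 4 and 3 in the molar lists. On unplaced contigs, 21 of 37 regions had a peak in all 4 libraries. The sex of the animals behind each library is not given, and its part in the X and Y counts was not tested.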

How the results depend on the processing

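With all peaks, the near-gene-end share was 3.66 points higher in ectoderm-only than in molar-only regions, the share with a peak in the 3 other libraries 59.7 points lower, and the ectoderm-only share over all genes 39.9%. With 38000 peaks by p these were 6.25 points, 56.8 points and 48.3%, with 13351 molar-only regions and 29.8% in all 4 libraries. Ranked by signal, there were 13489 molar-only regions, 30.5% in all 4, 6.68 points near gene ends and 48.7%. The best 50% of each list gave 7191 ectoderm-only and 11500 molar-only regions, 27.8% in all 4, 8.38 points and 52.4 points. Requiring 50% coverage gave 18.2%, 5.38 points, 58.0 points and 42.3%, and summit windows gave 18.3% in all 4 and 57.3 points. Windows of 500 bp and 2.5 kb gave 2.66 and 4.67 points near gene ends. Assignment within 25 kb gave an ectoderm-only share of 41.4%, and regions over 1 kb from a gene end 38.4%.

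Leaving out 1 library at a time gave 17538 to 41715 ectoderm-only regions and 24926 to 31887 molar-only regions. Regions in every library kept, a looser demand than all 4, made up 26.5% to 30.6%. The differences were 2.12 to 4.10 points near gene ends and 51.0 to 61.3 points for the other libraries. The all-gene share was 36.0% to 62.3%, with 793 to 1197 ectoderm-only and 375 to 537 molar-only gene-end peaks. The ratio of ectoderm-only to molar-only regions ran from 0.564 to 1.67, and it passed 1 only without ectoderm replicate 2, where ectoderm-only stands for the 80850 peaks of replicate 1 alone.

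Alternatives chosen after seeing the data gave 54.2 points with the other lists cut to equal length, 41.1% for regions side-only in both settings, and 191 molar-only genes by start window. Of the summary values under alternatives, 62 stayed near the reported value, 44 moved and 1 changed direction, and the cause was not tested beyond the shorter lists or fewer libraries that the alternatives impose. No paired analysis was possible because the sides are different tissues at different stages, and no label pairs their libraries. The counts also come from no test across samples. Depth limits all calls of absence, since a missing peak can be a weak one.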

Other observations

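Several genes held regions of both sides, which a gene-level count hides. Hunk, a kinase gene, had 4 ectoderm-only and 4 molar-only regions that kept their class in both settings. Tcf7l1, a WNT effector of progenitor cells, had 4 and 3. Bcl11b, a zinc-finger factor that ameloblasts need, had 3 and 6, and Casz1, a zinc-finger gene, 2 and 6. Igf1r had 6 and 2, Grb10, an imprinted adaptor that dampens insulin-like growth factor signals, 5 and 2, and Fgfr2 2 and 6.

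Side-only regions that kept their class also lay close together in stretches of 500 kb. The densest ectoderm stretch (chromosome 2, 33500001 to 34000000) held 13 ectoderm-only regions near Lmx1b and Mvb12b and also 10 molar-only regions. A stretch on chromosome 7 (116000001 to 116500000) held 11 ectoderm-only regions, 9 of them nearest to Plekha7, a gene of epithelial adherens junctions, beside 6 molar-only ones. The stretch at 72500001 to 73000000 of chromosome 1, with Igfbp2 and Tnp1, held 10 ectoderm-only and 3 molar-only regions, and the stretch at 39500001 to 40000000, with Creg2 and Map4k4, 10 and 11. A stretch on chromosome 19 with Dpcd and Fgf8 held 10 and 9. A stretch with Sox4 on chromosome 13 (28500001 to 29000000) held 10 ectoderm-only and 13 molar-only regions. On the molar side, the stretch with Slc39a14 and Pdlim2 on chromosome 14 (70000001 to 70500000) held 18 molar-only and 3 ectoderm-only regions. The stretch with Col5a1 and Rxra on chromosome 2 (27500001 to 28000000) held 16 and 4, and the stretch with Tenm4 on chromosome 7 (96500001 to 97000000) 16 and 5. The stretches with Ercc6l2 and Ptch1 (chromosome 13) and with Frmd4b and Mitf (chromosome 6) held 14 and 6 each, and the stretch with Dab2ip (chromosome 2) 14 and 10.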
